A study of Arabidopsis thaliana with 18 samples.

Results

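In the roots of Arabidopsis thaliana seedlings, 101 of 22746 probe sets gave a higher signal in the ecotype Wassilewskija (WS) than in the ecotype Columbia (Col-0) at all 3 angles of the growth plate. These probe sets were selected on the measured values. On the scale of log2(signal + 32), with the arrays quantile normalized, the mean of WS had to exceed that of Col-0 by more than 1 on upright plates and under both tilts. SWEET3, AT5G28520, AT3G28320 and the probe sets numbered 244901 to 245050 were left out, which removed 4 of the 105 probe sets that met the difference. Of the 101 members, 67 have 1 gene name, 6 stand for several genes and 28 have no gene name in the annotation used here, and only the first kind is named as a gene.

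Both ecotypes were wild type lines with no transgene or mutation given in the labels, and all seedlings were 8 days old at harvest. Seedlings at Agp 90° (Vertical) stayed upright for 8 days, whereas those at Agp 45° (slanted backward) and Agp 135° (slanted forward) were upright for 3 days and tilted for 5 days, where Agp is the angle of the growth plate. There were 3 arrays for each ecotype at each angle, every array with RNA of 5 pooled roots, so the spread is that between pools. Affymetrix ATH1 arrays were used, and the deposited values are MAS5 signal intensities, which have no unit of copies.

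Ecotypes are natural strains of 1 species that differ in sequence across the genome, and in some places in which genes and gene copies they carry. On a plate slanted backward, the roots of WS grow to the side (skewing) and in ripples (waving). Those of Col-0 wave there but skew little. On a plate slanted forward, the authors reported that WS roots skewed with less waving. They found no significant difference in shape between Col-0 roots on such plates and on upright ones. Genes that differ between Arabidopsis ecotypes are often found in large families that make or modify specialised metabolites or act in defence, and these families often lie in rows of similar genes on the chromosome.

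Over all probe sets, arrays of 1 group correlated at 0.986 to 0.992 and arrays of different ecotypes at 0.968 to 0.976, and the first principal component (45.1% of the variance) separated the ecotypes. Actin signal at the 3′ end over that at the 5′ end, a ratio that rises as RNA breaks down, was 6.05 on WS Vertical replicate 3 and 6.06 on Col-0 Vertical replicate 2, and at most 4.76 on the other arrays. Of 12 root markers, 2 had a named probe set (PYK10 and EXPA7), and their summed signal was 14591 to 21366 on the WS arrays and 13400 to 17458 on the Col-0 arrays. The sum was nearly all PYK10, with group means of 14582.3 to 18036.5, against 292 to 498 for EXPA7. On the normalized log2 scale, EXPA7 was lower in WS, by -0.18, -0.45 and -0.69 on upright, backward and forward plates. PYK10 differed by -0.06, -0.07 and -0.03, and neither gene was tested between the ecotypes. Of 14 leaf markers only RCA had a named probe set, at 649 to 1400 in WS and 652 to 1454 in Col-0. The ranges of the ecotypes overlapped for RCA and for the root sum, which says little about EXPA7.

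The members stood out against a background in which few probe sets differed this much. WS exceeded Col-0 by more than 1 on 202 probe sets (0.888%) at Agp 90°, on 152 (0.668%) at Agp 45° and on 193 (0.849%) at Agp 135°, and on 105 (0.462%) at every angle. The opposite difference, WS below Col-0 by more than 1 at every angle, was found on 295 probe sets (1.3%). The probes of the array were designed on the Col-0 genome, and the effect of this on these counts was not tested. In 95 of the 101 members all 9 WS arrays lay above all 9 Col-0 arrays on the normalized scale, as they did for 3.08% of all probe sets. The rule used these differences, so they are given as a description with no test. The members just inside the threshold were AT1G51340, AT1G51990 and AT2G25310, with smallest differences of 1.0015, 1.0043 and 1.0055, and the named genes just outside it were Fes1C (0.9964), AT5G18840 (0.9959) and AT3G21080 (0.9870).

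The 4 members with a smallest difference above 3 were bright in WS and much dimmer in Col-0, in which AT2G15560 and AT5G15360 were near or below a signal of 32 on most arrays and AT1G50290 and AT5G19100 were above it on all. The gene AT2G15560 had the largest difference of all members. Its signal was 3508, 2836 and 3338 on the WS arrays at Agp 90°, 2078, 2919 and 2181 at Agp 45°, and 1920, 2131 and 2428 at Agp 135°. On the Col-0 arrays it was 91.1, 70.5 and 41.1 at Agp 90°, 10.8, 51.1 and 25.6 at Agp 45°, and 10.2, 29.4 and 28.5 at Agp 135°. Every WS array was thus far above every Col-0 array, and the differences on the log2 scale were 5.02, 5.26 and 5.30 at Agp 90°, 45° and 135°. Because the pseudocount of 32 is larger than some of the Col-0 signals, these differences understate the ratio of the signals.

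AT1G50290 was the second. Its signal ran from 1642 through a median of 2421 to 2699 over the 9 WS arrays and from 72.8 through 83.5 to 137.3 over the 9 Col-0 arrays, and its differences were 3.93, 4.35 and 4.48. AT5G15360 ran from 555 through 622 to 781 in WS and from 6.03 through 29.3 to 43.5 in Col-0, with differences of 3.39, 3.24 and 4.02. In neither gene did the ecotypes overlap, and the range within an ecotype was small beside the gap between them.

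AT5G19100, of the family of aspartyl proteases, had signals of 1206 to 1802 in WS (median 1367) and 82.0 to 154.3 in Col-0 (median 114.6), with differences of 3.35, 3.44 and 3.15. The next genes in order, AT5G19110 and AT5G19120, belong to the same family and did not share this pattern. AT5G19110 differed by -1.09, -0.43 and -0.56 and AT5G19120 by -0.92, -0.60 and -0.72, both lower in WS at every angle. On the other side AT5G19090 differed by 0.29, 0.15 and 0.45. The large difference at AT5G19100 therefore covered 1 gene of the row and not its measured neighbours.

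**Figure D1:**
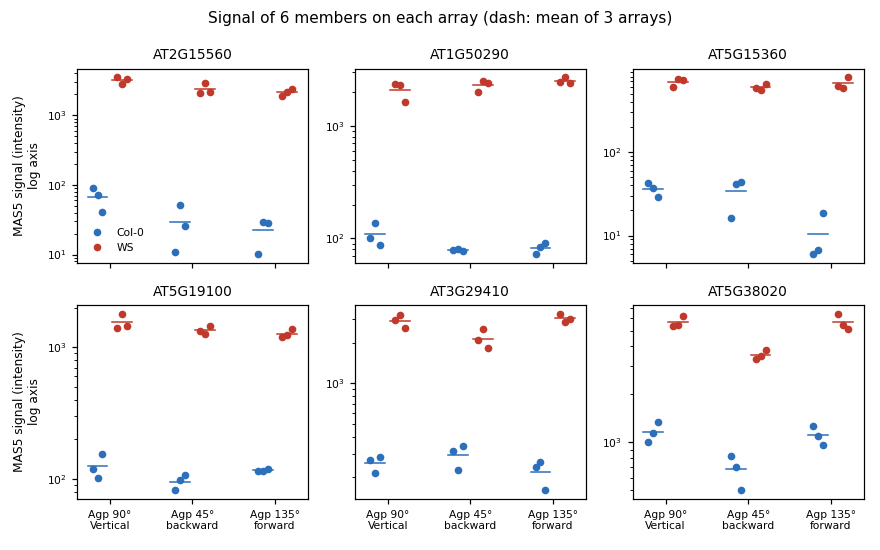
MAS5 signal (vertical axis, log scale) of 6 members on each of the 18 arrays, by angle of the growth plate, with WS in red, Col-0 in blue and a dash at the mean of the 3 arrays. In all 6 genes every WS array lies above every Col-0 array, with the widest gap at AT2G15560 (1920 to 3508 against 10.2 to 91.1).

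Terpene synthases, the enzymes that form the carbon skeletons of terpenes, were represented by 3 members. AT3G29410 was the brightest of them, with 2969, 3210 and 2568 in WS at Agp 90°, 2091, 2520 and 1812 at Agp 45°, and 3285, 2840 and 3022 at Agp 135°. In Col-0 it lay between 160.0 and 342.5 with a median of 259.3. The WS arrays at Agp 45° were the lowest of that ecotype, and the differences were 3.36, 2.74 and 3.65. AT1G48800 had 322.0 to 631 in WS and 9.97 to 66.2 in Col-0, with differences of 3.00, 2.47 and 3.18. AT1G70080 had 145.2 to 312.2 in WS and 6.21 to 38.7 in Col-0, with differences of 1.99, 2.68 and 1.84. For this gene the largest difference was at Agp 45°, the angle at which that of the other two was smallest, and the change with angle was not tested because it is built from the differences of the rule.

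AT5G38020, one of the 2 brightest members in WS, is of the SABATH family of methyltransferases, which attach methyl groups to carboxyl groups of small acids. Its signal was 5393, 5446 and 6190 in WS at Agp 90°, 3341, 3490 and 3827 at Agp 45° and 6433, 5456 and 5137 at Agp 135°. In Col-0 it was 1005, 1144 and 1342 at Agp 90°, 822.8, 701 and 499.6 at Agp 45° and 1266, 1091 and 959 at Agp 135°. The differences were 2.26, 2.35 and 2.32, so the gap kept nearly the same size while both ecotypes were lowest at Agp 45°.

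AT5G38020 lies 4 genes from another member, AT5G37980, in the order of protein-coding genes of RefSeq (assembly TAIR10.1) on chromosome 5. AT5G37980 belongs to the alkenal reductase type of dehydrogenases, and its signal was 250.5 to 590.5 in WS and 39.2 to 107.7 in Col-0, with differences of 2.36, 1.94 and 2.21. Between them, AT5G37990, a SABATH gene that missed the threshold at Agp 45°, differed by 1.15, 0.91 and 1.08. Just beyond AT5G38020, AT5G38030, of the MATE family of transporters, differed by 0.95, 0.64 and 0.74. The next named genes outside this stretch were near 0, with 0.28, 0.04 and 0.02 for AT5G37970, also a SABATH gene, and 0.12, -0.36 and 0.15 for AT5G38040. All 4 genes with a probe set of their own from AT5G37980 to AT5G38030 were thus higher in WS, and the next such genes on either side were near 0. AT5G37990 and AT5G38020 are both SABATH genes, and to what extent their probe sets bind each other's transcripts was not tested. Probe sets that stand for several genes, some of them members, or that have no gene name were not placed in the gene order. The edges of the stretch are therefore those of the named genes alone.

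The second group of neighbours lies on chromosome 1. AT1G52050 and AT1G52060 are adjacent genes for jacalin-related lectins, which are sugar-binding proteins, and AT1G51990, of the O-methyltransferase family, is 4 genes away from the first. Their differences were 1.19, 1.42 and 1.20 for AT1G52050, 1.15, 1.28 and 1.03 for AT1G52060 and 1.04, 1.15 and 1.004 for AT1G51990. AT1G51990 was dim in both ecotypes, at 40.7 to 55.0 in WS and 1.02 to 8.21 in Col-0. Other jacalin-related lectins in the same row did not share the direction: AT1G52070 differed by -0.36, 0.19 and -0.33, AT1G52100 by -0.85, -0.57 and -0.49, and AT1G52000 by -0.12, -0.16 and 0.54. The probe sets of such similar genes can bind each other's transcripts, and to what extent was not tested.

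The last such pair was AT5G15360, described above, and AT5G15420 on chromosome 5, which are 5 genes apart. AT5G15420 had 131.6 to 186.3 in WS and 11.1 to 26.7 in Col-0, with differences of 1.96, 1.97 and 1.71. AT5G15390, the only gene between them with a named probe set, differed by -0.20, -0.09 and 0.16, so it did not join the 2 members. The other genes between them could not be judged. In all, 7 of the 64 members placed in the gene order had another member within 10 genes, in 5 pairs. No such count was made for other probe sets, so nothing is read into it. The 67 probe sets of the genes next to a member that were not members themselves had a median difference, averaged over the angles, of 0.09, against 0.03 for all probe sets. Of these 67, 2 were above 1 and 4 below -1, which are larger shares than the 0.668% and 1.74% of all probe sets. Whether the shares differ was not tested.

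**Figure D2:**
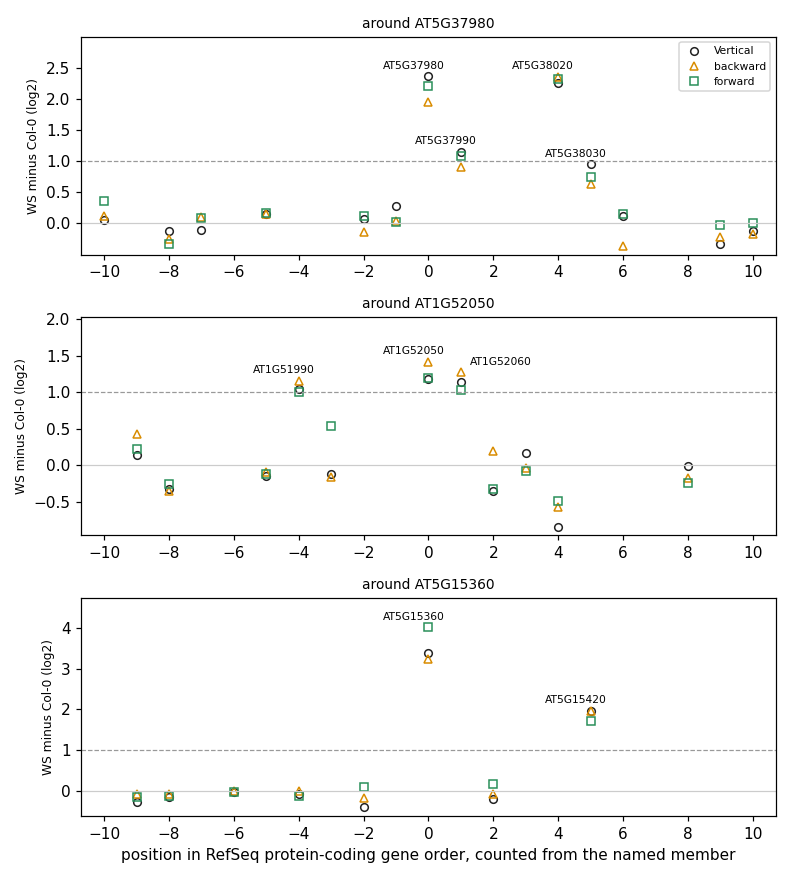
Difference between WS and Col-0 on the log2(signal + 32) scale (vertical axis) for the named probe sets within 10 protein-coding genes of AT5G37980, AT1G52050 and AT5G15360 (horizontal axis, places in the gene order), with a symbol for each angle and the threshold of 1 as a broken line. The measured genes from AT5G37980 (2.36 at Agp 90°) to AT5G38030 (0.95) are all raised, whereas in the other panels genes near 0 lie between members, as AT5G15390 does, and AT1G52100 is lower in WS (-0.85).

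By the smallest of the 3 differences, the next named members not described above were 8 genes. AT4G19240 had 263.4 to 422.5 in WS and 3.12 to 40.95 in Col-0. AT1G58025 had 118.4 to 234.8 in WS and 1.20 to 5.71 in Col-0. AT3G14395 had 216.2 to 523.4 and 10.9 to 57.6, AT2G11270 had 161.5 to 280.4 and 9.52 to 34.2, and AT1G48070 had 85.4 to 359.8 and 0.999 to 16.3, in WS and Col-0 in that order. Of these 5 genes, 4 had a Col-0 median below 32, where a signal gives little more than a bound, and AT3G14395 one of 47.1, while AT4G31570 (357.6 to 514 against 49.9 to 96.8), AT2G40960 (674.8 to 907 against 99.6 to 190.6) and AT1G26530 (214.8 to 300.7 against 13.1 to 72.7) had Col-0 medians of 78.9, 158.0 and 44.7. In none of the 8 did the arrays of the ecotypes overlap.

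Further genes among the 30 named members with the largest smallest differences encode enzymes or transporters. AT2G41480, a class III peroxidase, which oxidises phenolic compounds in the cell wall, had 681 to 1035 in WS and 170.8 to 382 in Col-0, with differences of 2.03, 1.55 and 1.78. AT1G66800, of the family of cinnamyl alcohol dehydrogenase-like enzymes, had 727 to 1185 in WS and 194 to 345.8 in Col-0. AT5G16990, of the same type of dehydrogenase as AT5G37980, had 507 to 787 in WS and 152.5 to 219.7 in Col-0. AT2G41190, an amino acid transporter, had 597.8 to 951 in WS and 148.5 to 249.9 in Col-0. Each of these 4 genes had signals well above 32 in both ecotypes, and the WS arrays lay above the Col-0 arrays by a factor of 3.56 to 3.96 at the medians.

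The remaining genes among the 30 included a receptor-like cytoplasmic kinase, AT5G18610, whose product acts in the response to chitin, a fungal wall sugar. It had 76.6 to 127.2 in WS and 1.26 to 32.4 in Col-0. AT5G32460, of the B3 family of transcription factors, had 81.9 to 135 in WS and 0.867 to 20.7 in Col-0. AT4G22280 (354.1 to 459 against 82.5 to 145.4) and AT2G35820 (97.7 to 197.1 against 13.2 to 43.1) also showed no overlap between the ecotypes.

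**Figure D3:**
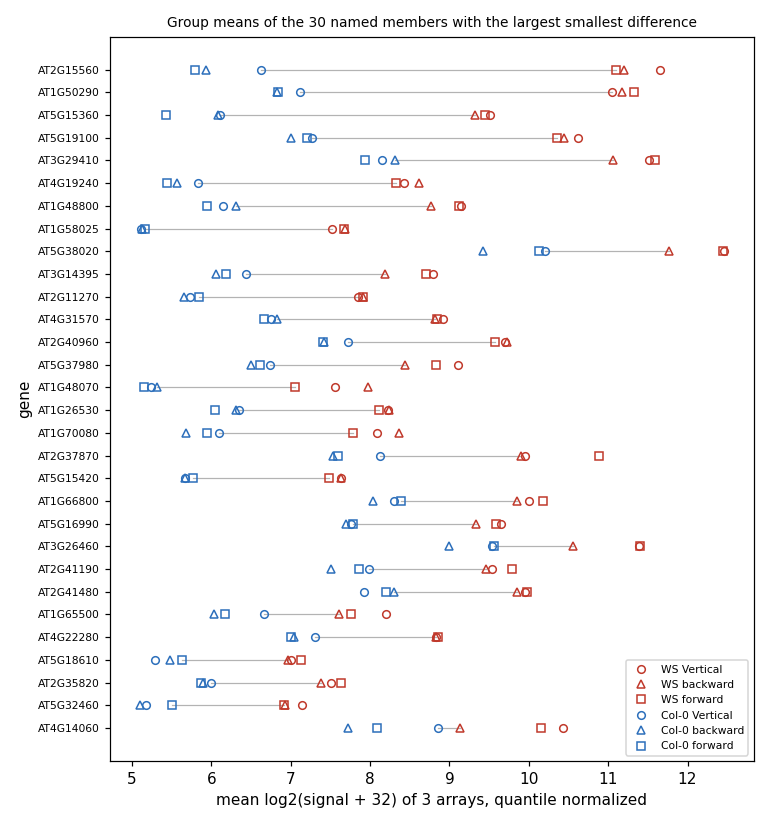
Mean log2(signal + 32) of the 3 arrays of each group (horizontal axis) for the 30 named members with the largest smallest difference, with a symbol for each angle, WS in red and Col-0 in blue. The difference narrows from 5.02 or more for AT2G15560 to 1.41 or more for AT4G14060, and the Col-0 means of many genes lie near the lower end of the scale.

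A further set of members was chosen for their annotation after their values were seen. UGT84A3 and UGT87A2, which attach sugars to small molecules, had differences of 1.47, 1.32 and 1.64, and of 1.34, 1.11 and 1.40. GSTU15, a tau class glutathione transferase, had 61.2 to 92.1 in WS and 2.45 to 20.2 in Col-0, with differences of 1.66, 1.12 and 1.29, and it was the only one of 11 named GSTU genes above 1 at every angle. FDH, the mitochondrial formate dehydrogenase, differed by 1.098, 1.14 and 1.71. SQN, a cyclophilin known for the timing of vegetative phase change, differed by 1.24, 1.62 and 1.63, with 462.6 to 640.1 in WS and 162.5 to 227.0 in Col-0. VPS24.2, of the complex that sorts membrane proteins into endosomes, was not far above the floor in WS (27.4 to 76.9) and below it in Col-0 (0.564 to 2.72).

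Among these chosen genes were also a mitochondrial transcript and some with products at the cell wall. cox1, which the mitochondrial genome encodes and which is a subunit of cytochrome c oxidase, had 701.9 to 1330 in WS and 290.1 to 531 in Col-0, with differences of 1.44, 1.15 and 1.18. AT2G16005, of the MD-2-related lipid recognition family, was the brightest member in WS, at 4647 to 7616, with 919 to 3334 in Col-0. AT5G02140, of the thaumatin family, and AT3G47380, of the family of invertase and pectin methylesterase inhibitors, differed by 1.66, 1.47 and 1.41, and by 1.07, 1.097 and 1.56. AT5G59670, a leucine-rich repeat receptor kinase, had 41.4 to 117.4 in WS and 2.30 to 17.9 in Col-0, so it too was near the floor in Col-0. Of the named members 2 are annotated as pseudogenes, AT1G60020 and AT1G42705, at 60.3 to 118.9 and 47.9 to 110.8 in WS and at most 10.6 and 22.8 in Col-0.

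The size of the difference varied by less than 0.5 with angle in most members, though in a smaller share of them than of all probe sets. The span between the largest and the smallest of the 3 differences was below 0.5 in 78 of 101 members (77.2%), against 87.0% of all probe sets, and had a median of 0.26, against 0.24. It was above 1 in 4 members (3.96%), against 0.611% of all probe sets, and 3 of the 4 have a gene name. AT2G37870, a lipid transfer protein, had differences of 1.83, 2.38 and 3.29. Its WS signals were 1243, 744.1 and 932 at Agp 90° and 1861, 1437 and 2398 at Agp 135°, while in Col-0 they were 214.7, 385.2 and 185.9, and 150.8, 213.6 and 133.2. The WS arrays at Agp 135° were thus its highest. AT1G26250, a proline-rich extensin of the cell wall, ran the other way, with 2.32, 1.64 and 1.3003. AT1G33670 had 1.01, 2.05 and 1.52. These spans come from the values of the rule and carry no test.

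Tilt was the comparison that the rule did not use. The change from Agp 90° to a tilted plate, averaged over the ecotypes, is independent of the difference between them, and within 1 ecotype it uses the arrays of the rule in another contrast. A larger share of the members than of all probe sets passed the test for backward tilt, mostly with a lower signal. In the mean of both ecotypes, 9 members fell and 1 rose at Agp 45° by limma's adjusted p, which is 9.90% of members, while 170 (0.747%) of all probe sets fell and 37 (0.163%) rose. In WS, 7 members fell and 0 rose, against 188 (0.827%) and 36 (0.158%) over all probe sets. In Col-0, 1 member fell and 0 rose, against 4 (0.0176%) and 1 (0.0044%). By the unadjusted p of limma, 24 members were lower and 5 higher in the mean of both ecotypes, 21 and 4 in WS, and 16 and 8 in Col-0. Over all probe sets the shares lower and higher by that p were 6.28% and 5.69% in the mean, 6.68% and 5.85% in WS, and 3.64% and 3.71% in Col-0, so among the members the higher side was near the background in the mean and in WS. WS and Col-0 each have their own upright arrays, and whether the change differed between them was not tested. Leaving out 1 array at a time gave 6 to 10 members in the mean of both ecotypes, with 6 without WS backward replicate 2, and 2 to 7 in WS, with 2 without WS backward replicate 1. Both arrays with the highest actin ratio are upright ones, and without them 8 members passed in the mean of both ecotypes, 7 of them among the 10, and 4 in WS.

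The members that fell included 2 of a family of lipid-binding proteins and a lectin. AT4G14060, of the polyketide cyclase and lipid transport family, had the largest fall. Its WS signals were 1397, 1240 and 1430 at Agp 90°, 427, 508.5 and 637 at Agp 45°, and 1495, 964.6 and 896.9 at Agp 135°. In Col-0 they were 303.8, 447 and 606, then 188.8, 167.2 and 187.9, and then 292.9, 252.3 and 191.9. In both ecotypes the 3 arrays at Agp 45° were below the 3 at Agp 90°. It fell by 1.22 on the log2 scale in the mean of both ecotypes (standard error 0.155, limma adjusted p = 0.00111). Its change was -1.302 in WS (adjusted p = 0.00967) and -1.13 in Col-0 (adjusted p = 0.119). The call in WS was lost without WS backward replicate 1 (adjusted p = 0.0516), without both arrays of the highest actin ratio (0.0622) and in the compared groups alone (0.0522). The WS arrays at Agp 45° overlapped the Col-0 arrays at Agp 90°, so this was one of the 6 members in which the 9 arrays of the ecotypes were not apart.

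AT3G26460, of the same family, had 2960, 2823 and 2258 in WS at Agp 90° and 1321, 1476 and 1605 at Agp 45°. In Col-0 it had 570.4, 749 and 853.9, and 506.7, 499.5 and 446.9. It fell by 0.69 in the mean of both ecotypes (standard error 0.0963, limma adjusted p = 0.00185) and by 0.83 in WS (adjusted p = 0.00794), with a change of -0.54 in Col-0 (adjusted p = 0.315). The call in WS was lost in the compared groups alone (adjusted p = 0.0957). At Agp 135° its WS arrays, 2983, 2382 and 2640, were close to the upright ones, with 1 array slightly above them.

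JAL22 (AT2G39310), a jacalin-related lectin, was the member that passed the test in each ecotype. It had 4898, 4656 and 5549 in WS at Agp 90° and 2431, 2645 and 2791 at Agp 45°. In Col-0 it had 1779, 2118 and 2684, and 1243, 1216 and 1064. No array at Agp 45° reached the upright arrays of its ecotype. It fell by 0.90 in the mean of both ecotypes (standard error 0.0950, limma adjusted p = 0.000278), by 0.93 in WS (adjusted p = 0.00432) and by 0.88 in Col-0 (adjusted p = 0.0348). The call in Col-0 was lost when the fit was restricted to the compared groups (adjusted p = 0.524) and without 12 of the 18 arrays in turn (adjusted p up to 0.153). Of 4 genes with a JAL symbol it was the only one above 1 at every angle. JAL23 and JAL34 had differences near 0 between the ecotypes, and JAL33 had differences of -4.28, -4.31 and -4.06 at Agp 90°, 45° and 135°. The lectin genes AT1G52050 and AT1G52060, which have no such symbol here, were also above 1 at every angle.

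The methyltransferase AT5G38020, whose signals are given above, fell by 0.74 in the mean of both ecotypes (standard error 0.108, limma adjusted p = 0.00258) and by 0.69 in WS (adjusted p = 0.0421). Its change in Col-0 was -0.78 (adjusted p = 0.119), so it moved by a similar amount in the ecotype in which it did not pass. The call in WS was lost without 10 of the 18 arrays in turn (adjusted p up to 0.144). A member that is a shared probe set and stands for several genes, and so is not named, fell by 1.07 (standard error 0.139, limma adjusted p = 0.00121). The other named member in the stretch of chromosome 5 around AT5G38020, AT5G37980, had a change of -0.45 (adjusted p = 0.117).

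HOS3-1 (AT4G36830), of the family of fatty acid elongases, fell by 0.61 in the mean of both ecotypes (standard error 0.121, limma adjusted p = 0.0224). Its WS signals were 842.9, 938.8 and 607 at Agp 90° and 332.8, 436.4 and 575 at Agp 45°, and its Col-0 signals 272.6, 318.2 and 264.2, and 209.2, 192.2 and 194.2. AT1G65500 fell by 0.61 as well (standard error 0.120, limma adjusted p = 0.0218), from 265.9, 252.6 and 261.5 to 186.2, 123.9 and 172.3 in WS and from 85.6, 59.0 and 63.2 to 38.4, 36.3 and 18.2 in Col-0. For both genes the tilted arrays lay below the upright ones in each ecotype. HOS3-1 also fell by 0.77 in WS (adjusted p = 0.0437), a call lost without 14 of the 18 arrays in turn. In the mean of both ecotypes each call was lost without 5 of the 18 arrays in turn, with adjusted p up to 0.0640 for HOS3-1 and 0.0589 for AT1G65500.

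AT1G52050, the lectin gene on chromosome 1, was the one member that rose. It had 678.8, 1142 and 644.9 in WS at Agp 90° and 1265, 1349 and 1324 at Agp 45°, and 342.4, 297.7 and 380.8, and 485.2, 430.8 and 532.5 in Col-0. It rose by 0.58 in the mean of both ecotypes (standard error 0.120, limma adjusted p = 0.0270), which was lost without 9 of the 18 arrays in turn (adjusted p up to 0.0777) and without both arrays of the highest actin ratio (adjusted p = 0.120). Its neighbour AT1G52060 had a change of 0.59 with a larger standard error of 0.165 (adjusted p = 0.121). At Agp 135° the changes were -0.23 for AT1G52050 and -0.62 for AT1G52060 (adjusted p = 0.514 and 0.188).

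**Figure D4:**
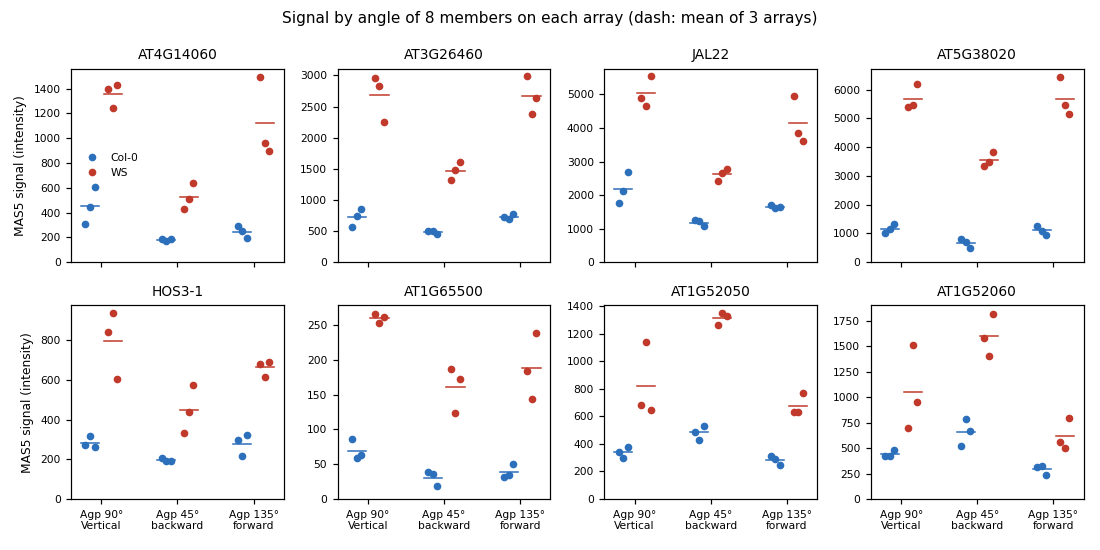
MAS5 signal (vertical axis, linear from 0) of 8 members on each array by angle of the growth plate, with WS in red, Col-0 in blue and a dash at the mean of the 3 arrays. The signals at Agp 45° are the lowest in 6 genes, as for JAL22 (2431 to 2791 in WS), and the highest in AT1G52050 and AT1G52060.

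**Figure D5:**
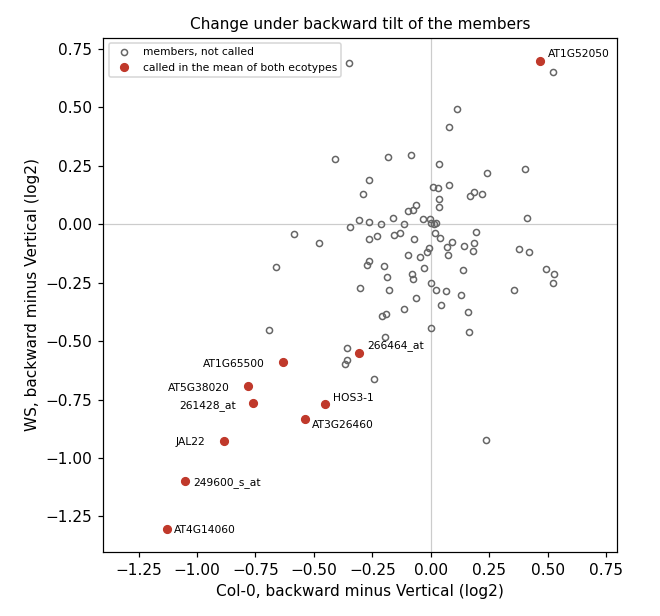
Change from Agp 90° to Agp 45° on the log2 scale in Col-0 (horizontal axis) and WS (vertical axis) for the 101 members, each a point, with the 10 that passed the limma test in the mean of both ecotypes in red. These 10 have the same sign in both ecotypes, from -1.302 in WS and -1.13 in Col-0 for AT4G14060 to 0.70 and 0.47 for AT1G52050.

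Forward tilt moved no member past the test. At Agp 135° 0 of the 101 members were called by limma in the mean of both ecotypes, in WS or in Col-0. Over all probe sets, 0 (0%) rose and 1 (0.0044%) fell in the mean, 7 (0.0308%) rose and 5 (0.022%) fell in WS, and 0 (0%) rose and 0 (0%) fell in Col-0. By the unadjusted p of limma, 10 members were lower and 3 higher in the mean of both ecotypes, 9 and 7 in WS, and 11 and 5 in Col-0. Over all probe sets the shares lower and higher were 5.26% and 5.33% in the mean, 5.46% and 5.15% in WS, and 3.18% and 3.55% in Col-0. The share of the 101 members that was lower was thus above that of all probe sets in each comparison. The share that was higher was nearer to it, and neither was tested for the members as a set. The smallest adjusted p of a member was 0.161 in the mean of both ecotypes. The forward and backward comparisons share the upright arrays, and their values are therefore only set side by side. AT4G14060 changed by -0.52 forward (adjusted p = 0.228) and -1.22 backward, JAL22 by -0.34 (adjusted p = 0.204) and -0.90, and AT5G38020 by -0.04 (adjusted p = 0.934) and -0.74. AT2G37870, whose WS arrays were highest at Agp 135°, had a forward change of 0.94 in WS (adjusted p = 0.180) and -0.52 in Col-0 (adjusted p = 0.748).

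The place of the members in the genome was not used by the rule. Of the 66 with a locus on the 5 nuclear chromosomes, 21 lie on chromosome 1, 14 on chromosome 2, 7 on chromosome 3, 7 on chromosome 4 and 17 on chromosome 5. As a share of the named probe sets of each chromosome, this is 0.609%, 0.636%, 0.255%, 0.357% and 0.565%. The mean level in WS, on the log2 scale, had a median of 8.60 over the members and 7.87 over all probe sets, and in Col-0 the medians were 6.84 and 7.87, which the rule itself pulls apart. In 25 members (24.8%) the Col-0 mean signal was below 32 at all angles, as in 23.8% of all probe sets. Shared probe sets of the kind that match several transcripts were 6.93% of members and 4.11% of all, and the standard deviation within groups had a median of 0.22 against 0.17. In RNA of whole roots, more cells of a type and more RNA per cell cannot be told apart.

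No gene of the lists written for this tissue was a named member. Members with no gene name or with several genes could not be looked up on the lists. The lists cover the synthesis and breakdown of glucosinolates (sulfur compounds of defence), flavonoid synthesis, salicylate defence, immune receptors, and root and leaf markers, but few of their genes have a named probe set. For glucosinolate synthesis 3 of 21 genes had one, with a median difference between WS and Col-0 of -0.02, and for breakdown 1 of 14, with -0.05. For flavonoid synthesis 2 of 9 had one (-0.30), for immune receptors of the NLR class 2 of 17 (-0.99), and for salicylate defence 1 of 11 (0.55), against a median of 0.03 over all probe sets. Both NLR genes, AT3G44400 and AT3G44630, are listed as RPP1-like and were dim. Their group mean signals were 8.81 to 14.6 and 31.3 to 37.8 in WS, and 41.9 to 55.6 and 85.9 to 121.1 in Col-0. Of all listed genes only UGT74B1, which acts in glucosinolate synthesis, passed a tilt comparison, as it fell by 0.38 under backward tilt in the mean of both ecotypes (limma adjusted p = 0.0252).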

How the data were processed

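The authors hybridized root RNA to 18 ATH1 arrays, whose probes were designed on the Col-0 genome, and deposited MAS5 signal intensities from Affymetrix Expression Console (version not given in the sources used here), linear and with no log, of 22810 probe sets. The mean of each array, trimmed by 2% at each end, was 500.04, so a scaling between arrays is already in the values, and array medians were 193.5 to 208.4. The study's own tests used RMA values, not computed here. A pseudocount of 32 was added, log2 taken, the arrays quantile normalized, and 64 control probe sets left out. Differences on this scale understate those of dim genes. The 6 group means were estimated together by limma 3.58.1 (R 4.3.3, 12 residual and 3.45 prior degrees of freedom), and two-sided p-values of its moderated test were adjusted by Benjamini-Hochberg over 22746 probe sets and called below 0.05. The labels do not say that arrays come from separate cultures, so p-values measure the spread between arrays, whose number limits the precision. The fit was tested on simulated data.

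The members and lists were chosen with earlier results of these data known. Named are the 30 members with 1 gene name and the largest smallest difference, those called under tilt, those within 10 genes of another member, those on a list, 3 on each side of the threshold, and related or adjacent genes. The text says which others were picked with their values in view. Gene names come from the platform's annotation and RefSeq (TAIR10.1), which matched 13436 of 13513 probe sets with 1 gene. Families of genes without a symbol are general knowledge of the annotation. The alternatives were the deposited scale, the pseudocount (1 or 100), removal of the dimmest 40% of probe sets, a variance trend, only the compared groups, a block for replicate number, 1 array left out at a time, and the methods' threshold (an absolute log2 change above 1 and unadjusted p below 0.05). No positions or sequences are given, since no genome was used here.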

Additional observations from a re-analysis of the deposited data

Results flagged for a closer look

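AT1G26250, the proline-rich extensin, was singled out among the named members because its 3 arrays at Agp 135° lay on opposite sides of the 3 at Agp 90° in the 2 ecotypes. Its change was -0.55 in WS (limma adjusted p = 0.180) and 0.47 in Col-0 (adjusted p = 0.690) on the log2 scale, so neither passed the test, with the 3 tilted arrays below the 3 upright ones in WS (912, 874.6 and 913.7 against 1224, 1658 and 1194) and above them in Col-0 (381.6, 338.8 and 347.7 against 251.2, 292.9 and 203.8). The difference between the ecotypes was not tested, because it is built from the values that chose the members. A member with no gene name had the same kind of separation in the other direction, with changes of 0.23 in WS and -0.37 in Col-0 (adjusted p = 0.467 and 0.654).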

How the results depend on the processing

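The number of members depends on how dim values are treated. The rule found 216 probe sets with a pseudocount of 1, among them all 101 members, 47 with a pseudocount of 100 and 62 without the 40% dimmest probe sets, all 47 and all 62 of them members, and 95 to 103 with 1 array left out. The calls below are those among the 101 members of the text. The count of members called for backward tilt in the mean of both ecotypes kept within 1.5 times of 10 under every setting tried except the methods' threshold, which gave 2, and some settings that leave out 1 array (6 to 10). Over all probe sets this comparison gave 318 calls with a pseudocount of 100, 334 without the dimmest probe sets, 20 by the methods' threshold and 126 to 280 with 1 array left out.

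For backward tilt in WS, members called were 4 with a pseudocount of 1, 12 with 100, 11 without the dimmest probe sets, 1 in the compared groups alone, 2 by the methods' threshold, 4 without both arrays of the highest actin ratio (chosen after seeing the data) and 2 to 7 with 1 array left out. All probe sets called were 10, 51, 91 and 79 to 233 under the last 4 of these settings. In Col-0, members called were 0 on the deposited scale, with a pseudocount of 1, in the compared groups alone and without both arrays, 4 without the dimmest probe sets, 2 by the methods' threshold and 0 to 2 with 1 array left out. All probe sets called there were 0 with a pseudocount of 1, 11 with 100, 22 without the dimmest, 10 with a variance trend, 0 in the compared groups, 20 by the methods' threshold, 3 without both arrays and 0 to 7 with 1 array left out.

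For forward tilt, members called were 0 to 1 in the mean of both ecotypes and 0 in each ecotype with 1 array left out. They were 0 under every other setting. All probe sets called in the mean were 0 with a pseudocount of 1 and in the compared groups, 4 without the dimmest, 3 by the methods' threshold and 0 to 4 with 1 array left out. In WS they were 0 with a pseudocount of 1, 33 with 100, 34 without the dimmest, 46 with a variance trend, 0 in the compared groups, 39 by the methods' threshold, 0 without both arrays and 0 to 29 with 1 array left out. In Col-0 they were 2 by the methods' threshold and 0 to 1 with 1 array left out. Fewer probe sets enter the adjustment without the dimmest, and fewer arrays give the spread in the compared groups. The cause of the other shifts was not tested.

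Replicate numbers do not pair the arrays. Residuals of 45 pairs with the same number had a median correlation of -0.00285 (-0.229 to 0.146), and 5 of 18 arrays were closest to one of their own number. With the replicate number as a block, the Col-0 count of members called under backward tilt went from 1 to 0 and the WS count from 7 to 6, with 5 shared, and that of no other comparison moved. No called change of a named member reversed under any setting, but 22 values under other settings and 56 with 1 array left out no longer passed, all for backward tilt. With 3 arrays a group and signals below 32 in Col-0 for 25 members, the size of the largest differences is the least certain.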
